A study of Danio rerio with 6 samples.

Results

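Ubiquitin-conjugating enzymes (E2s) take activated ubiquitin from an E1 enzyme and, with an E3 ligase that holds the substrate, pass it on to a protein. Which E2 takes part largely sets the kind of mark: single ubiquitins, lysine-48 chains that send proteins to the proteasome, or lysine-63 chains that serve signalling and membrane traffic. In macrophages, lysine-63 and linear chains carry signals from Toll-like and cytokine receptors to NF-κB. A few E2s carry SUMO or NEDD8, small relatives of ubiquitin, instead. The roles given below are those of the human and yeast enzymes.

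The genes described here are all those whose symbol begins with ube2, regardless of case, and that had 10 or more counts in at least 3 of 6 libraries. They are 37 of the 31962 Ensembl genes in the files. A further gene, UBE2T, an E2 of DNA crosslink repair, fell short with 39 counts over all libraries and 10 or more in 1 of them. Just inside the limit, UBE2QL1 reached it in 5 libraries, and the other 36 genes in all 6. Each thus reached it in libraries of both genotypes, so none entered through 1 genotype alone. All 37 also passed the filter of the test.

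The libraries hold polyadenylated RNA of macrophages sorted from zebrafish (Danio rerio) larvae, 3 from cxcr3.2-/- mutants and 3 from cxcr3.2+/+ wild types. All larvae carried an mpeg1:mCherryF reporter, in which the promoter of the macrophage gene mpeg1 drives a red fluorescent protein, and no treatment is named. Age is 6 days after fertilisation in one label and 5 days in another. Cells of 150 to 200 pooled larvae went into each library, so p-values measure the spread between pools. The comparison asks which transcripts differ when cxcr3.2, a chemokine receptor gene, is mutated.

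Total counts were 6239470 to 9607009 per library. Markers of other cells were present in both genotypes. The 22 macrophage marker genes summed to 10468 to 10594 CPM in mutant and 6709 to 8072 CPM in wild type libraries, and none was at 0 in any library. Of these, 12 had a positive and 10 a negative log2 fold change. Most of the gap in the sum lay in apoeb, at 4996 ± 482 CPM in mutant and 2415 ± 402 CPM in wild type libraries (SD, n = 3 each). The other 21 summed to 5036 to 5901 CPM in mutant and 4397 to 5213 CPM in wild type libraries and overlapped. Of 3 genes with the symbol MPEG1, ENSDARG00000043093 was lower without overlap, at 49.3 ± 19.3 CPM in mutant and 118 ± 15.9 CPM in wild type libraries (adjusted p = 0.0904 in edgeR, 0.000748 with DESeq2, at most 0.284 over all alternatives). The MPEG1 gene with the most counts, ENSDARG00000055290, overlapped at 300.3 ± 42.2 CPM in mutant and 336 ± 56.1 CPM in wild type libraries. In edgeR 2 of the 22 markers were called higher, apoeb and SPI1, and 1 lower, where 1.19% of all tested genes were called. SPI1 measured 560 ± 28.4 CPM in mutant and 361 ± 28.8 CPM in wild type libraries. With 1 library left out, its call was lost in 6 fits and that of apoeb in 2. The lower one was the cysteine protease gene ctss2.2, at 15.9 ± 1.43 CPM in mutant and 133 ± 18.9 CPM in wild type libraries. Without overlap 7 markers were higher and 3 lower, against 10.2% and 10.4% of all tested genes. The 12 epidermal markers summed to 4430 to 4696 CPM in mutant and 5390 to 6030 CPM in wild type libraries, again with none at 0. The 6 neutrophil markers summed to 1403 to 2613 CPM in mutant and 1178 to 1661 CPM in wild type libraries. The 11 muscle markers had a sum of 1250.5 CPM in mutant replicate 2, where the remaining libraries held 73.5 to 117 CPM. Heat shock and co-chaperone genes of a fixed list took 3.12% to 3.34% of counts in mutant and 8.55% to 16.4% in wild type libraries, with the highest share in wild type replicate 2. Whether any of these had a part in the differences below was not tested. In RNA of pooled cells, fewer cells of a type and less RNA per cell cannot be told apart.

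Levels below are CPM, counts relative to the library total, scaled by the trimmed mean of M-values (TMM). They are not corrected for transcript length, so they are compared between libraries and not between genes. Fold changes are mutant over wild type, from edgeR's quasi-likelihood test with Benjamini-Hochberg adjustment over all 16499 genes tested. None of the 37 E2 genes was called at an adjusted p of 0.05, where 1.19% of all tested genes were. At an unadjusted p under 0.05, 10 E2 genes were higher in mutant macrophages, against 7.04% of all genes, and 1 was lower, against 7.17% of all genes. DESeq2, a second count test, called 5 higher (ube2na, ube2l3b, ube2d2, ube2ib and ube2d1b), against 4.59% of genes, and 1 lower (UBE2G2), against 4.64%. These DESeq2 shares are of the 10084 genes to which it gave an adjusted p. UBE2O and UBE2QL1 got none and are counted as not called.

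For 11 of the 37 genes (29.7%) all 3 mutant libraries lay above all 3 wild type libraries, against 10.2% of all tested genes. For 2 genes, UBE2G2 and UBE2B, they lay below, against 10.4% of all genes. Genes with more counts separate more easily. Among genes with 50 or more counts in at least 3 libraries, 11 of 34 E2 genes (32.4%) were higher without overlap, against 13.9% of 9605 genes. The median log2 fold change was 0.17 over the E2 genes and −0.028 over all tested genes, with 21 E2 genes positive and 16 negative. This median was 0.048 without wild type replicate 3 and 0.11 without mutant replicate 1. In total the E2 genes summed to 2305, 2203 and 2187 CPM in mutant libraries, against 1847, 1739 and 1859 CPM in wild type libraries, and these sums did not overlap. The 26 genes other than those 11 summed to 834 ± 50.4 CPM in mutant and 850 ± 17.6 CPM in wild type libraries (SD, n = 3 each), and overlapped. The gap in the total thus lay in the 11 genes, which were picked by these values, so this split is a description.

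**Figure D1:**
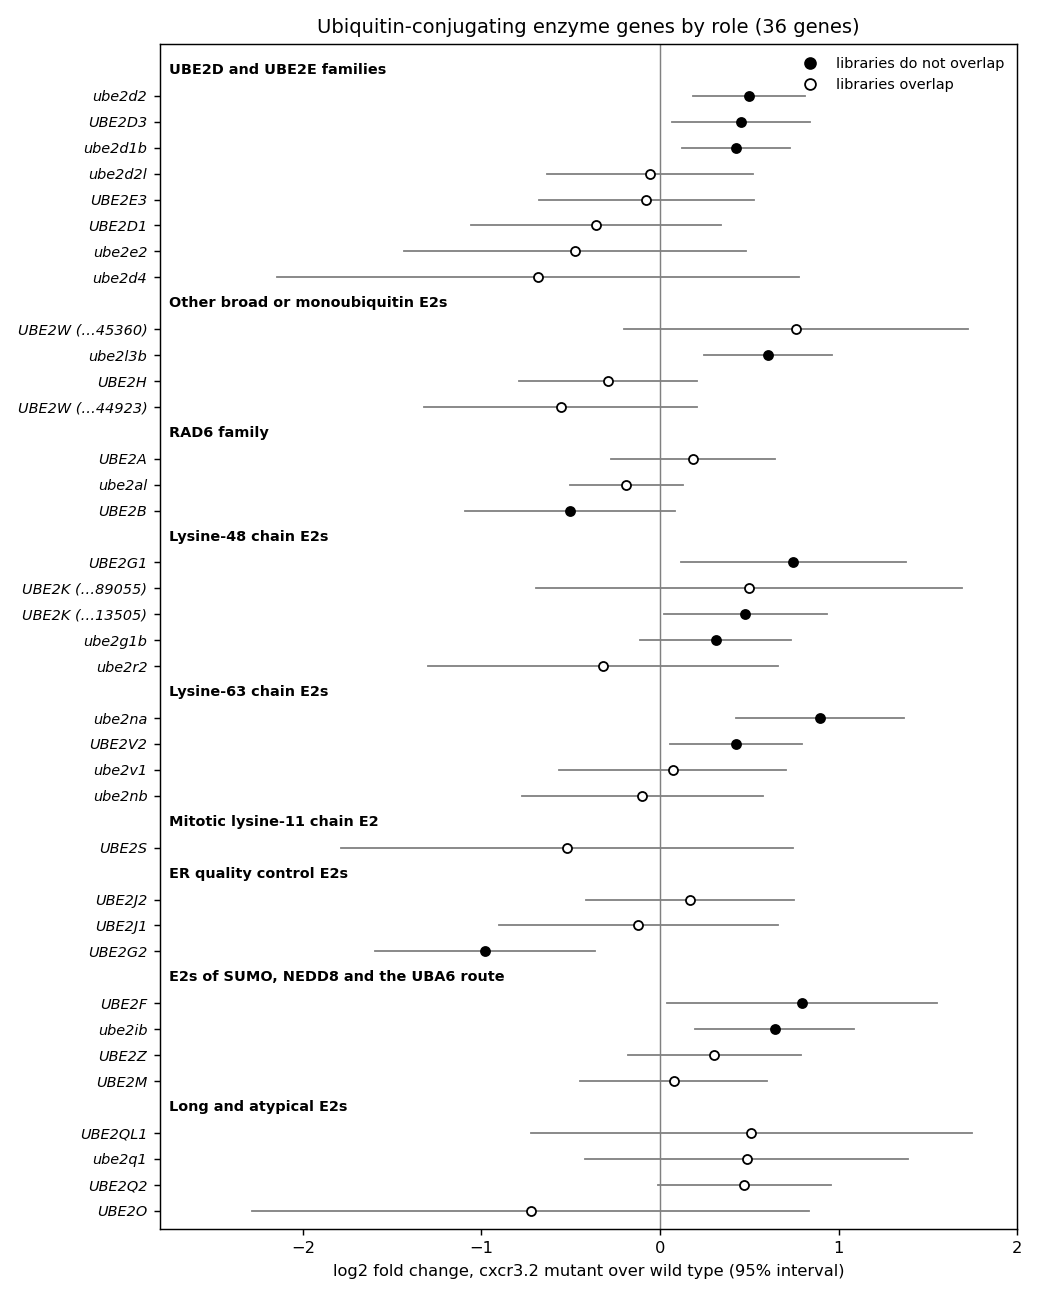
Log2 fold change (x axis, cxcr3.2 mutant over wild type) of 36 of the 37 E2 genes, grouped by role, with 95% intervals as lines. Filled points are the 11 higher and 2 lower genes whose 3 mutant and 3 wild type libraries did not overlap; the values run from −0.98 for UBE2G2 to 0.90 for ube2na.

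The gene with the lowest p was ube2na (ENSDARG00000008748), which encodes the E2 that builds lysine-63 chains. It measured 144, 121 and 102 CPM in mutant libraries, against 77.6, 52.2 and 67.3 CPM in wild type libraries. Every mutant library was above every wild type library, and the lowest value was that of wild type replicate 2. The level was 1.86-fold higher in the mutant (log2 fold change 0.90, SE 0.21, 95% interval 0.43 to 1.37). In edgeR its adjusted p was 0.0869. The adjusted p ranged from 0.00155 with DESeq2 to 0.245 over all alternatives, and was 0.0361 when edgeR was run on genes with 50 or more counts. Under that stricter filter ube2na was the 1 E2 gene called, where 1.48% of genes were called higher.

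UBE2N works as a pair with a partner that has the E2 fold but no catalytic cysteine, either UBE2V1, linked to NF-κB signalling, or UBE2V2, linked to DNA damage. UBE2V2 (ENSDARG00000028198) measured 176, 219 and 192 CPM in mutant libraries, against 122, 151 and 163 CPM in wild type libraries. The genotypes did not overlap, and the log2 fold change was 0.43 (SE 0.16, adjusted p = 0.286 in edgeR). UBE2V1's gene, ube2v1, measured 16.0, 23.7 and 26.4 CPM in mutant libraries, against 17.8, 25.1 and 20.1 CPM in wild type libraries, and overlapped. Its interval for the log2 fold change ran from −0.56 to 0.70. The second ube2n gene, ube2nb (ENSDARG00000045877), also overlapped. It had 15.5, 27.8 and 16.8 CPM in mutant libraries, against 19.5, 19.7 and 25.1 CPM in wild type libraries, with an interval of −0.77 to 0.58. Together the 4 genes of this pair summed to 360 ± 28.3 CPM in mutant and 254 ± 19.8 CPM in wild type macrophages (SD, n = 3 each).

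The UBE2D family starts chains with many RING-type ligases. Of 8 UBE2D and UBE2E genes, 3 UBE2D genes were higher without overlap and none lower, against 10.2% and 10.4% of all tested genes. Those 3 had positive and the other 5 negative log2 fold changes, with a median of −0.066 over the 8. The highest counts of any E2 gene were those of ube2d2 (ENSDARG00000043484), with 294, 299 and 259 CPM in mutant libraries, against 198, 182 and 223 CPM in wild type libraries. No library overlapped the other genotype, and the log2 fold change was 0.50 (SE 0.14, adjusted p = 0.143 in edgeR, 0.0136 with DESeq2, range over alternatives 0.0136 to 0.321). The gene ube2d1b (ENSDARG00000038576) measured 215, 219 and 194 CPM in mutant libraries, against 166, 149 and 153 CPM in wild type libraries. It too did not overlap, at 1.34-fold (SE 0.13 on the log2 scale, adjusted p = 0.19 in edgeR, range over alternatives 0.0307 to 0.382). UBE2D3 measured 63.9, 68.6 and 63.7 CPM in mutant libraries, against 44.2, 47.3 and 51.8 CPM in wild type libraries, again without overlap (adjusted p = 0.275 in edgeR).

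The remaining UBE2D genes and the related UBE2E genes, which differ by an extended N-terminus, overlapped. UBE2D1 (ENSDARG00000029107) measured 11.7, 12.5 and 9.64 CPM in mutant libraries, against 11.6, 13.3 and 18.5 CPM in wild type libraries. Its log2 fold change was −0.36 (SE 0.31, adjusted p = 0.695 in edgeR). The log2 fold changes of ube2d2l, ube2d4, ube2e2 and UBE2E3 lay between −0.69 and −0.06. Among these, ube2d4 was uneven within the mutant, with 2.61, 3.02 and 12.5 CPM in mutant libraries against 5.46, 11.8 and 12.1 CPM in wild type libraries. Its interval, −2.15 to 0.78, was the widest among the UBE2D and UBE2E genes.

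ube2l3b (ENSDARG00000027141) encodes an E2 that pairs with HECT and RBR ligases, among them the ligase of linear chains. It measured 198, 204 and 181 CPM in mutant libraries, against 144, 106 and 133 CPM in wild type libraries. There was no overlap, and the level was 1.52-fold higher (log2 fold change 0.60, SE 0.16, adjusted p = 0.12 in edgeR). The adjusted p ran from 0.00757 with DESeq2 to 0.284 over all alternatives. UBE2H, the E2 of the CTLH ligase complex, measured 53.6, 52.3 and 72.7 CPM in mutant libraries, against 90.2, 67.3 and 60.7 CPM in wild type libraries, and overlapped (log2 fold change −0.29, SE 0.22, adjusted p = 0.648 in edgeR).

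**Figure D2:**
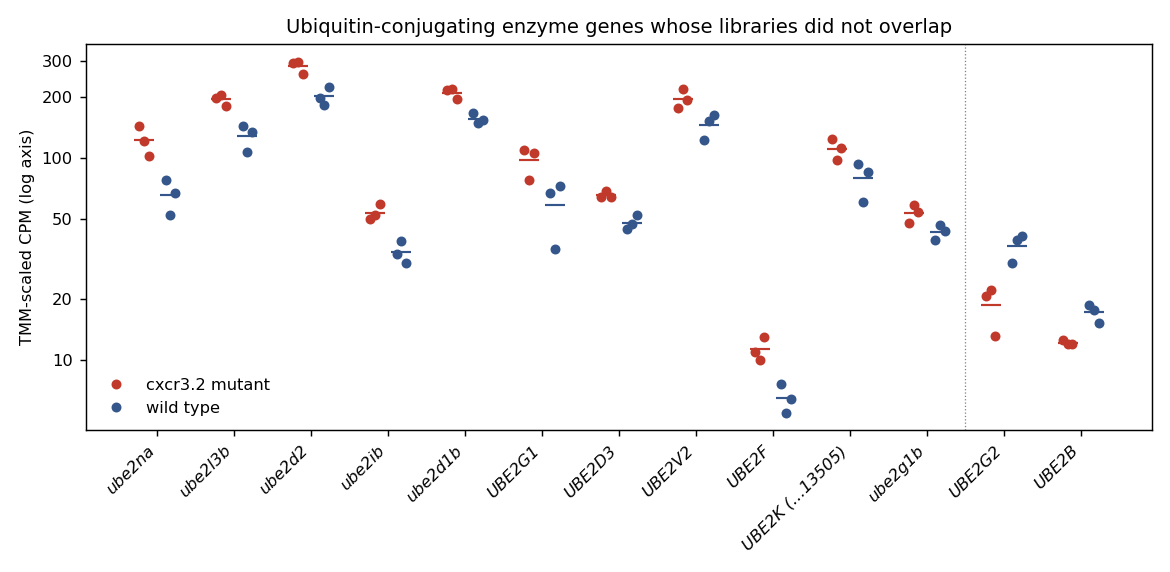
TMM-scaled CPM (y axis, log scale) in the 3 cxcr3.2 mutant and the 3 wild type libraries for each E2 gene whose genotypes did not overlap, with bars at the means. The 11 genes left of the dotted line were higher in mutant libraries and the 2 right of it, UBE2G2 and UBE2B, lower; these genes were picked by these values, so the gaps are a description.

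Among E2s of lysine-48 chains, UBE2G1, which extends chains on cullin ligase substrates, measured 109, 77.6 and 105 CPM in mutant libraries, against 66.8, 35.3 and 72.1 CPM in wild type libraries. Wild type replicate 2 was low, and the log2 fold change was 0.75 (SE 0.28, adjusted p = 0.268 in edgeR) with that library and 0.50 without it. The higher-count copy of UBE2K, which builds free and bound lysine-48 chains, is ENSDARG00000013505. Its levels were 123, 97.0 and 111 CPM in mutant libraries, against 93.3, 60.5 and 84.6 CPM in wild type libraries (adjusted p = 0.332 in edgeR). The second UBE2G1 gene, ube2g1b, was also higher without overlap, at 53.3 ± 5.62 CPM in mutant and 43.0 ± 3.58 CPM in wild type macrophages (SD, n = 3 each). Its log2 fold change was 0.31 with an interval of −0.11 to 0.73, which spans 0 (adjusted p = 0.523 in edgeR). UBE2K ENSDARG00000089055 and ube2r2, an E2 of SCF ligases, averaged under 9 CPM in both genotypes and overlapped.

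UBE2G2 (ENSDARG00000025404) had the largest negative log2 fold change of the family. It serves endoplasmic reticulum-associated degradation, in which misfolded proteins leave the endoplasmic reticulum for the proteasome. Its levels were 20.7, 22.1 and 13.1 CPM in mutant libraries, against 30.1, 39.2 and 41.1 CPM in wild type libraries. The genotypes did not overlap, and the level was 1.97-fold lower in the mutant (log2 fold change −0.98, SE 0.27, 95% interval −1.60 to −0.36, adjusted p = 0.141 in edgeR). The adjusted p was 0.0197 with DESeq2 and at most 0.343 over all alternatives. The 2 E2s anchored in the endoplasmic reticulum membrane, UBE2J1 and UBE2J2, had log2 fold changes of −0.12 and 0.17 and overlapped. SYVN1, a ligase gene of the same degradation route, had a log2 fold change of 0.0032.

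The RAD6 family marks histone H2B and the replication clamp PCNA with single ubiquitins. UBE2B measured 12.5, 11.9 and 12.0 CPM in mutant libraries, against 18.7, 17.7 and 15.3 CPM in wild type libraries. These did not overlap (log2 fold change −0.50, SE 0.26, adjusted p = 0.44 in edgeR). UBE2A had a log2 fold change of 0.18 and overlapped. The third gene, ube2al, measured 185, 189 and 207 CPM in mutant libraries, against 216, 246 and 199 CPM in wild type libraries, and overlapped (log2 fold change −0.19, SE 0.14, adjusted p = 0.635 in edgeR).

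Other modifiers have their own E2s. For SUMO, ube2ib (ENSDARG00000007438) measured 49.6, 51.8 and 58.8 CPM in mutant libraries, against 33.3, 38.9 and 30.3 CPM in wild type libraries. It was 1.56-fold higher without overlap (SE 0.20 on the log2 scale, adjusted p = 0.177 in edgeR, 0.0299 with DESeq2, at most 0.389 over all alternatives). NEDD8, the activator of cullin ligases, has 2 E2s. UBE2F, which serves the cullin CUL5, measured 10.9, 10.0 and 12.9 CPM in mutant libraries, against 7.64, 5.48 and 6.41 CPM in wild type libraries, without overlap. Its log2 fold change was 0.79 (SE 0.33, adjusted p = 0.331 in edgeR). UBE2M, which serves the other cullins, measured 27.3, 32.1 and 25.5 CPM in mutant libraries, against 28.9, 29.5 and 22.0 CPM in wild type libraries, and overlapped with an interval of −0.45 to 0.60. UBE2Z, charged by the alternative E1 enzyme UBA6, had a log2 fold change of 0.30 and overlapped.

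UBE2S, which lengthens lysine-11 chains for the anaphase-promoting complex in mitosis, was low and uneven. It measured 5.91, 7.00 and 3.31 CPM in mutant libraries, against 12.0, 3.03 and 8.15 CPM in wild type libraries, and overlapped (log2 fold change −0.52, SE 0.56, adjusted p = 0.765 in edgeR). The 27 cell cycle genes tested beside it had no call in edgeR or DESeq2 and a median log2 fold change of −0.47. At an unadjusted p under 0.05, 2 were lower and 0 higher, against 7.17% and 7.04% of all genes. The long and atypical E2s overlapped as well. UBE2Q2 measured 168, 112 and 153 CPM in mutant libraries, against 99.5, 85.0 and 129 CPM in wild type libraries. For ube2q1 and UBE2QL1 the log2 fold changes were 0.49 and 0.51, and for UBE2O, an E2 that is its own ligase, −0.72 on 10 to 66 counts per library. The 2 UBE2W genes, whose product attaches ubiquitin to N-termini, had opposite signs. UBE2W ENSDARG00000045360 measured 19.1, 10.8 and 8.03 CPM in mutant libraries, against 8.97, 8.36 and 5.03 CPM in wild type libraries. UBE2W ENSDARG00000044923 measured 10.8, 6.45 and 7.84 CPM in mutant libraries, against 13.1, 10.2 and 13.7 CPM in wild type libraries. Both overlapped, with log2 fold changes of 0.76 and −0.56 (adjusted p = 0.484 and 0.527 in edgeR).

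Related genes were then compared within each library, by the ratio of their counts, which does not depend on how libraries are scaled. Because lengths differ, a ratio is not one of transcripts, and reads of similar copies may have been assigned to one another. In each of 9 pairs the gene with more counts over all 6 libraries was put on top, which fixes what a higher ratio means. For the UBE2W genes these totals were close, at 516 and 496 counts. The ratios of 5 pairs did not overlap between the genotypes and were higher in mutant libraries. The pairs were examined after values were seen, and no share over other gene pairs was computed, so this count is a description. The ratio of ube2na to ube2nb was 9.28, 4.35 and 6.04 in mutant libraries, against 3.98, 2.64 and 2.68 in wild type libraries. The ratio of ube2d1b to UBE2D1 was 18.3, 17.6 and 20.2 in mutant libraries, against 14.2, 11.2 and 8.27 in wild type libraries. For UBE2A over UBE2B it was 5.46, 4.68 and 4.94 in mutant libraries, against 3.53, 2.64 and 3.19 in wild type libraries. UBE2W ENSDARG00000045360 over UBE2W ENSDARG00000044923 gave 1.77, 1.68 and 1.02 in mutant libraries, against 0.685, 0.817 and 0.367 in wild type libraries. In mutant replicate 3 the 2 copies were nearly even, at 85 and 83 counts. The fifth pair was ube2d2 over ube2d2l, at 6.62 ± 2.51 in mutant and 4.21 ± 0.498 in wild type libraries (SD, n = 3 each). An exact two-sided permutation test gave p = 0.1 for each of these 5 pairs, the smallest value 3 libraries against 3 allow. Ratios without overlap always give that value, so the test only restates the separation. Adjustment over the 9 pairs gave 0.18 and does not cover the pair not reported here. The ratios of UBE2G1 to ube2g1b, UBE2V2 to ube2v1, UBE2Q2 to ube2q1 and between the UBE2K copies overlapped (p = 0.2 to 1 in the same exact test).

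**Figure D3:**
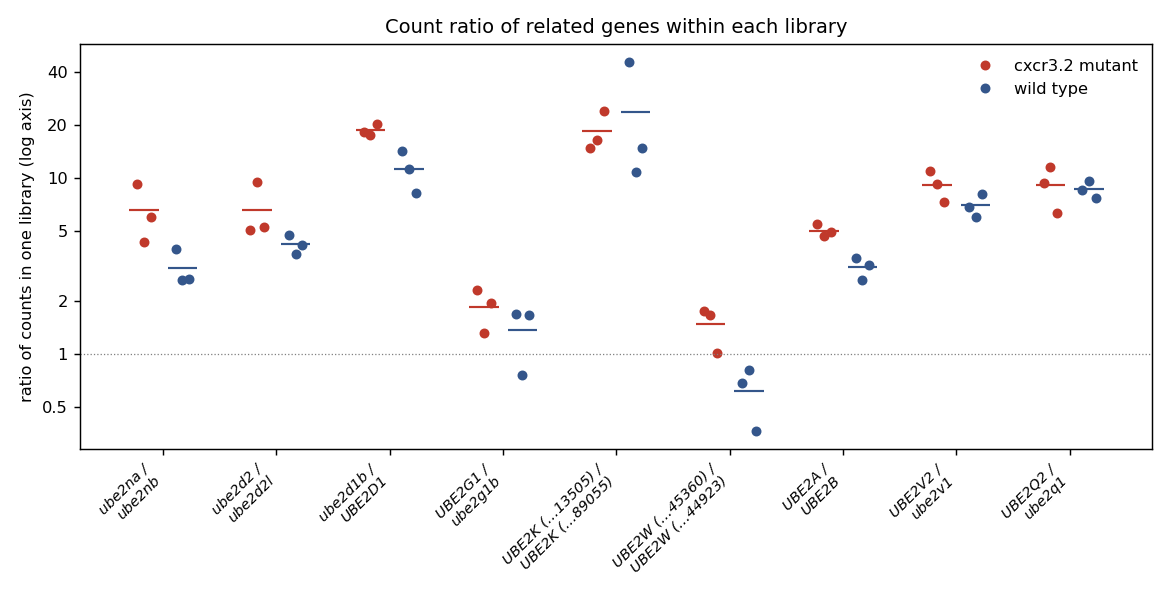
Ratio of the counts of 2 related E2 genes in one library (y axis, log scale) for 9 pairs, with 3 cxcr3.2 mutant and 3 wild type libraries each and bars at the means. The first 3 pairs, UBE2W and UBE2A over UBE2B do not overlap; the ratio of the 2 UBE2W genes is 1.02 or more in mutant and 0.817 or less in wild type libraries.

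E2 genes took 0.255%, 0.236% and 0.241% of all counts in mutant libraries, against 0.180%, 0.144% and 0.172% in wild type libraries. These are shares of unscaled totals, which include the heat shock counts, and their gap is wider than that of the scaled levels. The TMM-scaled sums gave a ratio of 1.23, mutant mean over wild type mean. Within this family, 5 genes (ube2d2, ube2al, ube2d1b, UBE2V2 and ube2l3b) held 46.3%, 51.3% and 47.2% of the counts in mutant libraries and a mean of 46.9% in wild type libraries, and overlapped. The share of ube2al was 8.68% ± 0.723 in mutant and 12.2% ± 1.76 in wild type libraries (SD, n = 3 each), without overlap. Shares of UBE2G2 were 0.834% ± 0.209 in mutant and 2.03% ± 0.35 in wild type libraries, also without overlap. Both were picked for this gap, so it is a description. In all, 5 shares were lower and 3 higher in mutant libraries without overlap, and no such count was computed for other gene families. A share also depends on the family total, which was higher in mutant libraries. The scaled level of ube2al itself overlapped, at 193 ± 11.6 CPM in mutant and 220 ± 23.6 CPM in wild type libraries.

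Wild type replicate 2, the library with the most heat shock counts, was the lowest of all 6 libraries for 11 of the 37 E2 genes, and for 15.3% of all tested genes. In genes higher without overlap the lowest library is always a wild type one. Of the 11 such E2 genes it was wild type replicate 1 in 3, replicate 2 in 7 and replicate 3 in 1. The same split over all genes higher without overlap was not computed, so these counts are a description. Without wild type replicate 2 the log2 fold changes were 0.76 for ube2na, 0.50 for ube2l3b, 0.44 for ube2d2, 0.40 for ube2d1b and 0.76 for ube2ib. That of UBE2G2 was −0.92. At an unadjusted p under 0.05, 6 E2 genes were then higher, in place of 10. Each other fit that left out 1 library also gave fewer than 10, at 7 to 9. When the scaling factors were computed without the heat shock list, the median over the E2 genes was 0.16 and no E2 gene was called.

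The E2s act between E1 enzymes, ubiquitin itself, ligases and deubiquitinases, and those genes were read from the same fit, as lists. Of 9 E1 genes none was called, and uba1, the main ubiquitin-activating enzyme, measured 275 ± 33.1 CPM in mutant and 230 ± 37.1 CPM in wild type macrophages (SD, n = 3 each; adjusted p = 0.546 in edgeR). Of 10 genes with an E2-like fold but another name, among them cdc34a, ATG3 and UFC1, none was called, with a median log2 fold change of 0.12. In both lists edgeR at an unadjusted p under 0.05 and DESeq2 also gave 0 genes.

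In the list of 14 ubiquitin and related modifier genes 1 was lower in mutant macrophages, where 0.885% of all tested genes were called lower. It was ubb, a polyubiquitin gene, and it measured 1167, 1015 and 1036 CPM in mutant libraries, against 2536, 5638 and 2951 CPM in wild type libraries. The level fell by 1.79 on the log2 scale (SE 0.27, adjusted p = 0.0199 in edgeR). The call was lost without mutant replicate 1, 2 or 3 or wild type replicate 3, with adjusted p-values of up to 0.105. The second polyubiquitin gene, ubc, had 511 ± 92.8 CPM in mutant and 617 ± 57.3 CPM in wild type macrophages (SD, n = 3 each; adjusted p = 0.499 in edgeR), and overlapped.

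Among ligases, 1 of 28 HECT and RBR genes was called lower in edgeR, where 0.885% of all genes were, and none higher. At an unadjusted p under 0.05 there were 4 higher and 2 lower, against 7.04% and 7.17% of all genes. DESeq2 called 2 higher and 2 lower, against 4.59% and 4.64% of the 10084 genes with an adjusted p there. The gene called in edgeR was HERC4, a HECT ligase gene, at 7.50 ± 6.01 CPM in mutant and 244 ± 119 CPM in wild type macrophages (SD, n = 3 each; log2 fold change −5.05, SE 0.69, adjusted p = 0.0127 in edgeR). This call was lost without mutant replicate 3, wild type replicate 2 or wild type replicate 3 (adjusted p up to 0.0832). The log2 fold change was −5.69 without mutant replicate 2 and ranged from −5.69 to −4.53 with 1 library left out. The list's median was 0.32. WWP1, another HECT ligase gene, measured 59.6 ± 14.9 CPM in mutant and 29.7 ± 3.89 CPM in wild type macrophages, without overlap. It was not called in edgeR (adjusted p = 0.0916) and was 1 of the 2 called higher with DESeq2 (adjusted p = 0.00251). None of 26 cullin-RING and anaphase-promoting complex genes (median 0.04) and none of 16 chaperone-linked and quality control ligase genes (median 0.02) was called in edgeR. At an unadjusted p under 0.05 there were 4 higher and 1 lower in the first of these lists and 3 higher and 1 lower in the second, where all genes gave 7.04% higher and 7.17% lower. DESeq2 called 1 higher in the first and 1 lower in the second, against 4.59% and 4.64% of its 10084 genes with an adjusted p. SKP1, the adaptor of SCF ligases, averaged 183 ± 17.4 CPM in mutant and 120 ± 20.9 CPM in wild type macrophages. It was the 1 gene of the first list called higher with DESeq2 (adjusted p = 0.0155). CUL5, the cullin served by UBE2F, averaged 83.1 ± 11.9 CPM in mutant and 53.2 ± 14.6 CPM in wild type macrophages (SD, n = 3 each), and overlapped. Neither SKP1 nor CUL5 was called in edgeR. CUL5 was named for its link to UBE2F and was not the cullin gene of lowest p.

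Of 46 deubiquitinase genes, whose products remove ubiquitin, 3 fell and none rose in edgeR, where 0.885% of all genes were called lower, and the median over the 46 was −0.18 (log2 fold change). At an unadjusted p under 0.05 there were 4 higher and 8 lower, against 7.04% and 7.17% of all genes. DESeq2 called 2 higher and 5 lower, against 4.59% and 4.64% of the 10084 genes with an adjusted p there. The 2 higher ones were usp42, at 54.1 ± 18.3 CPM in mutant and 24.9 ± 1.36 CPM in wild type macrophages, and USP10, at 110 ± 4.87 CPM in mutant and 68.5 ± 15.2 CPM in wild type macrophages (SD, n = 3 each). MINDY3 measured 11.9 ± 4.91 CPM in mutant and 188 ± 58.0 CPM in wild type macrophages (adjusted p = 0.00312 in edgeR). USP2 measured 17.1 ± 4.01 CPM in mutant and 52.1 ± 9.34 CPM in wild type macrophages (adjusted p = 0.0243 in edgeR). USP19, which is anchored in the endoplasmic reticulum, measured 94.4 ± 17.9 CPM in mutant and 231 ± 59.6 CPM in wild type macrophages (SD, n = 3 each; adjusted p = 0.0332 in edgeR). The calls of USP2 and USP19 were each lost in 5 of the 6 fits that leave out 1 library, with adjusted p-values of up to 0.125 and 0.133, and with the replicate number as a block (0.0609 and 0.111). For USP2 the exception was the fit without mutant replicate 1, and for USP19 that without wild type replicate 1. The call of MINDY3 held in all 6.

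**Figure D4:**
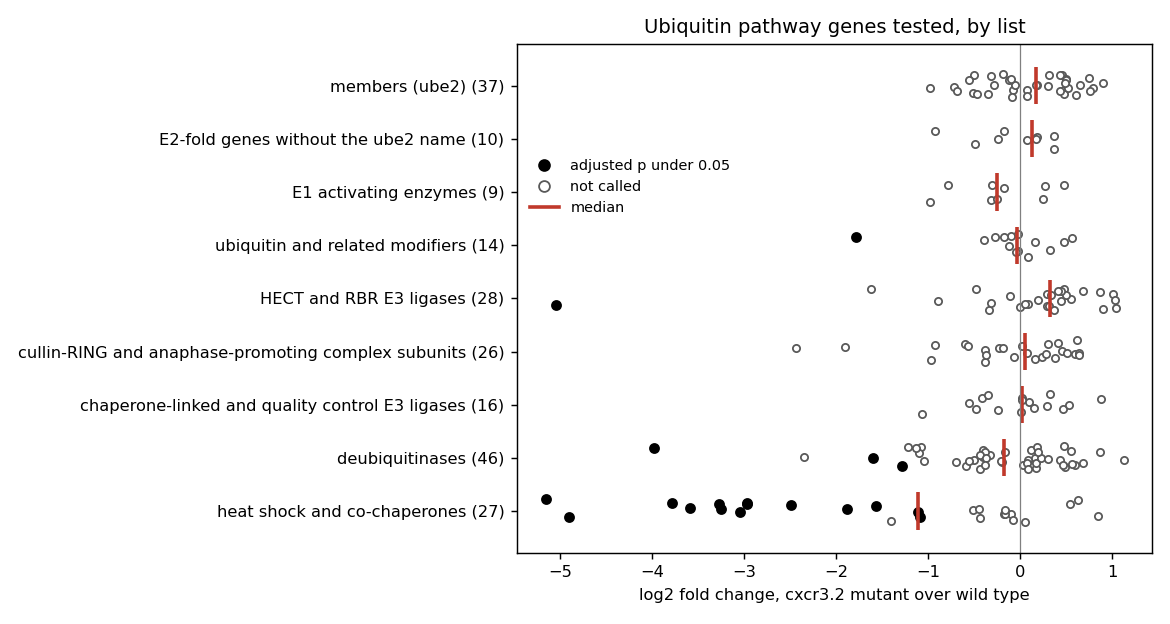
Log2 fold change (x axis, cxcr3.2 mutant over wild type) of each gene tested in the ubiquitin pathway lists and the heat shock list, 1 point per gene (vertical scatter within a row is arbitrary), with red bars at the medians and list sizes in brackets. No point of the ube2 row is filled (adjusted p under 0.05). The points of ubb, HERC4, 3 deubiquitinase genes and 14 of 27 heat shock genes are filled and lie left of 0. Of all tested genes 0.885% were called lower.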

How the data were processed

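Raw counts per Ensembl gene were deposited by the authors, 1 file per library with no normalization. Reads were aligned to GRCz10 per the labels' protocols, with Bowtie and TopHat listed as tools per the submitters' processing notes. Not given in the sources used here are the counting tool, its strand setting and its handling of reads that match several genes. A low-input kit amplified the cDNA, and no molecular identifiers are named.

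Symbols came from a table that named 26121 of the 31962 IDs. Low genes were dropped with filterByExpr (at least 10 counts, total of at least 15), and the rest were scaled by TMM and tested with edgeR 4.0.16 (glmQLFit, glmQLFTest, genotype as the only term, two-sided, R 4.3.3). DESeq2 1.42.0 was an alternative. Standard errors are the log2 fold change divided by the root of the F statistic. The common biological coefficient of variation was 0.441, and replicates of a genotype differed beyond sampling noise, with a chi-square of at least 16.5 per gene. On simulated data for this comparison (15460 of 16499 genes tested), 13.1% of 99 genes changed 2-fold and 46.4% of 97 changed 4-fold were called.

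The genes, their roles, the lists and the paralog pairs were chosen with earlier results of these data known. Values per library are given for the 6 genes of lowest p in each direction, the 5 with the highest mean CPM, the E2s of SUMO, NEDD8 and lysine-63 chains and UBE2S. UBE2D3, UBE2K and ube2g1b (no overlap), UBE2Q2, ube2d4, the second UBE2W gene and the paralog ratios were added after their values were seen. From the ubiquitin pathway lists, each gene called in edgeR is named. Further genes named from them, such as SYVN1, are examples and not always those of lowest p. Listed symbols were matched regardless of case, then without a paralog letter. Single values of 1 E2 gene, its paralog ratio and 1 ligase gene are not reported here; that E2 gene is kept in every count, sum and median over the family.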

Additional observations from a re-analysis of the deposited data

How the results depend on the processing

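The number of E2 genes called was 0 in every fit except those with DESeq2 (5 higher, 1 lower) and with a stricter count filter of 50 counts in 3 libraries (1 higher). Leaving out 1 library gave 0 to 0 called in either direction. Over all genes, 51 higher and 146 lower calls became 463 and 468 with DESeq2, 142 and 295 with the stricter filter, and 13 and 84 with the replicate number as a block. They ranged from 3 to 11 higher and 43 to 98 lower with 1 library left out. The median over the E2 genes was 0.093 with the stricter filter, and 0.048 to 0.24 with 1 library left out. E2 genes higher at an unadjusted p under 0.05 numbered 6 to 9 there, and lower ones 1 to 2.

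Of 252 refits of 21 E2 genes described singly, 238 kept sign and side of the threshold, 7 passed it (6 with DESeq2, 1 with the stricter filter), and 7 changed sign, all for genes near 0. With 1 library left out, UBE2M ranged from −0.043 to 0.16, being −0.019 without mutant replicate 2 and −0.043 without wild type replicate 3. The range of ube2nb was −0.40 to 0.060, with 0.060, 0.019 and 0.032 without mutant replicate 1, mutant replicate 3 and wild type replicate 3. That of ube2v1 was −0.075 to 0.26, with −0.075 and −0.028 without mutant replicate 3 and wild type replicate 1. The cause was not tested. Libraries that share a replicate number showed no joint deviation over all genes (correlations −0.0262, 0.0024 and −0.0293). Mutant and wild type libraries with different numbers gave −0.0438 to 0.0656. A correlation over all genes can miss a pairing seen in some of them, and pairing in a subset of genes was not tested. When replicate number was added to the model as a second term, 0 E2 genes were called. In simulated data of this design, 13.1% of genes changed 2-fold were called. The changed genes were drawn from all genes with a log2 mean CPM of 1 or more. The share for the E2 genes alone was not computed and may differ.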
